A study of Mus musculus with 13 samples.

Results

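Slow and fast muscle fibres build the regulatory strand of the thin filament from different genes. The 9 genes described here encode troponin T (Tnnt1 in slow and Tnnt3 in fast fibres), troponin C (Tnnc1 slow, Tnnc2 fast), troponin I (Tnni1 slow, Tnni2 fast) and tropomyosin (Tpm3 slow, Tpm1 fast, and Tpm2, the beta form found in both). They were picked by name, as the skeletal muscle paralogues of these families, and are 9 of the 17924 genes in the deposited tables. All 9 were measured in every library, and all 9 passed the filter on low values, for which 3 libraries had to reach a normalized count of 10, as 17069 genes did. Their smallest count in any library was 77.

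The study sequenced RNA of whole muscles from mice of the B6C3Fe a/a-Ttn mdm/J colony, which carries a deletion in the giant sarcomere protein titin (Ttn). The 13 libraries used here are all of the genotype *mdm*, and wild-type libraries are not analysed here. They comprise 5 of EDL (extensor digitorum longus, a fast hindlimb muscle, mice aged 38, 38, 42, 38 and 38 days for replicates 1 to 5), 5 of psoas (a fast hip flexor, 29, 38, 42, 38 and 38 days) and 3 of soleus (a slow postural calf muscle, 33, 36 and 38 days). The *mdm* deletion is thus shared by every group, the labels name no treatment, and the comparisons are between muscles of diseased mice that were taken from animals culled for other experiments.

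In a relaxed muscle, tropomyosin lies along the actin filament and covers the sites to which myosin binds. Calcium binding to troponin C releases troponin I from actin, troponin T transmits this to tropomyosin, and the sites are uncovered. Adult slow and fast fibres use different paralogues of each part, which differ in calcium sensitivity and in the speed of the response, so the mixture of slow and fast RNA is commonly read as a measure of fibre type.

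On GRCm38, in GENCODE mouse release 21, the troponin T and I genes lie in pairs near each other. Another protein-coding gene lies between Tnni2 and Tnnt3, and another between Tnni1 and Tnnt2. Tnni2 (chromosome 7, 142441808 to 142444410) and Tnnt3 (142498836 to 142516009), both fast and both on the forward strand, are 54426 bases apart. Tnnt1 (chromosome 7, 4504570 to 4516382, reverse strand) lies 1923 bases from Tnni3, the heart troponin I. Tnni1 (chromosome 1, 135779434 to 135810989, forward strand) lies 25365 bases from Tnnt2, the heart troponin T. Tnnc1 is on chromosome 14 (31208312 to 31211729, forward strand) and Tnnc2 on chromosome 2 (164777161 to 164779967, reverse strand). The tropomyosin genes are on chromosome 9 (Tpm1, 67022590 to 67049406, reverse strand), chromosome 4 (Tpm2, 43514711 to 43523765, reverse strand) and chromosome 3 (Tpm3, 90072649 to 90100902, forward strand).

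RefSeq (GRCm38.p6) gave the sequence before the start site for 7 of the 9 genes, in 9 windows of 250 bases. These start sites can lie inside the gene spans given above. The windows printed for Tnnt1 and Tnni1 are wholly within those spans, and those for Tpm1 and Tnnc2 are in part. The windows of members that stood high or low together are printed 5′ to 3′ on the strand of the gene, with matches to the motifs searched in capitals: chr7:4515976-4516225, reverse strand, for Tnnt1, chr14:31208062-31208311, forward, for Tnnc1, chr1:135799171-135799420, forward, for Tnni1 (the first of its 2 windows), chr3:90072401-90072650, forward, for Tpm3 (the first of its 2), chr9:67049214-67049463, reverse, for Tpm1 and chr2:164779735-164779984, reverse, for Tnnc2.
Tnnt1: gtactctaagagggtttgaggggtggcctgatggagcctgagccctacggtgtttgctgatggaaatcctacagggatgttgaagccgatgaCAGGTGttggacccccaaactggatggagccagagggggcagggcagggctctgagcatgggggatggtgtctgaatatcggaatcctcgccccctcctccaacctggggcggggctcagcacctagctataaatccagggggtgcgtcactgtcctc
Tnnc1: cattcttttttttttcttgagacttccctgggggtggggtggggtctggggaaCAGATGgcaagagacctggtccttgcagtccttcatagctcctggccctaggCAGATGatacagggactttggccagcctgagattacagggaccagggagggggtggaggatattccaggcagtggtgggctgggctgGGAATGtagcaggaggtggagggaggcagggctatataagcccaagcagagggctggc
Tnni1: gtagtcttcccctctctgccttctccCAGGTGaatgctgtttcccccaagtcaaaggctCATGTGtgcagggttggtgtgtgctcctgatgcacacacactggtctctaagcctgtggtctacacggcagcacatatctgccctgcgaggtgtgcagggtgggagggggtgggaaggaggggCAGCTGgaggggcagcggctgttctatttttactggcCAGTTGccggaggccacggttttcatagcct
Tpm3: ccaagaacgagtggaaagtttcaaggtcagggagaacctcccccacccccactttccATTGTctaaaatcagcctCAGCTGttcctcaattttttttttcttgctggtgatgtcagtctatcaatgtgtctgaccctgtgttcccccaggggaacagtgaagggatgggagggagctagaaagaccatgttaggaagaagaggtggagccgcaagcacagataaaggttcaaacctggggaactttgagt
Tpm1: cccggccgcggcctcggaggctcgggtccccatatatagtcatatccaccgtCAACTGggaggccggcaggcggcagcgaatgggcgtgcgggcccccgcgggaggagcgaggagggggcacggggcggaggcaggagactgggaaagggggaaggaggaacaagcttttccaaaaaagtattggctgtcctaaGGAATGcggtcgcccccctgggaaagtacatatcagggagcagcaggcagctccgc
Tnnc2: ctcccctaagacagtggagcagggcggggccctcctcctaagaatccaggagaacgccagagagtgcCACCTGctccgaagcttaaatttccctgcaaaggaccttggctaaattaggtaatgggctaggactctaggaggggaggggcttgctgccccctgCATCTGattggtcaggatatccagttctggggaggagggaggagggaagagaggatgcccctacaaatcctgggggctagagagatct
The motifs were the E-box CANNTG (bound by myogenic factors), the MCAT element CATTCC (bound by TEAD factors), the Sox-family core ACAAT, and the CArG box and MEF2 site by name, on both strands. No match of 1 motif overlapped that of another in the windows printed. All 9 windows held an E-box, as did 66.2% of the 32851 windows of this length in the RefSeq table. The MCAT element stood before Tnnc1, where it began 58 bases from the start site, and before Tpm1, where it began 56 bases from it, and 12.6% of all windows held it. The Sox-family core was in both windows of Tpm3 and in 27.7% of all windows. No window of the 7 genes held the CArG box (1.47% of all windows) or the MEF2 site (2.92%). These are matches of letters and not known binding sites.

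Libraries held 9114176 to 48835209 counts in all. The values given are normalized counts, the number of reads on a gene divided by a size factor of the library that the authors computed with DESeq2. The libraries are biological replicates by the study's account, but several muscles can come from 1 mouse. The 5 markers of skeletal muscle fibres (Acta1, Ckm, Mb, Ttn, Des) summed to 1057676 to 1826594 in EDL, 762473 to 1385260 in psoas and 752214 to 1065718 in soleus. Of 6 heart markers on a list, 2 were in the deposited tables, Tnni3 and Myh6, and Tnni3 did not pass the filter on low values. Tnni3 reached at most 12.85 normalized counts in any library, while Myh6, a heart myosin beside Myh7 in the genome, stood at 23216 to 36022 in soleus, 161.2 to 2479 in EDL and 178 to 4465 in psoas, so it moved with the slow members, Tnnc1 (also a heart gene) among them, and its part in their levels was not tested. A condition code in the labels (T1, T3, T4, T5, T6), which the labels do not explain, is shared by some libraries: T4 by soleus replicates 1 and 2 and replicate 2 of the other two muscles, T5 by EDL replicate 3 and psoas replicate 3, and T6 by soleus replicate 3 and replicates 4 and 5 of the other two. By the labels the T4 libraries are male and the T5 libraries female, so code and sex cannot be told apart there. Values within a code are given beside the main ones.

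In soleus, the slow members were many times as abundant as in EDL and psoas, and the fast members were the least abundant there. A second pattern separated the 2 fast muscles: Tnnt3 and Tnni2, the fast troponins T and I, were lower in psoas than in EDL, whereas the slow members did not differ detectably between them. Tpm2 stood outside both patterns. In bulk muscle, fewer fibres of a type and less RNA per fibre cannot be told apart. By the study's RNA integrity numbers, no psoas library was above the lowest EDL library. The part of RNA quality in the second pattern was not tested.

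**Figure D1:**
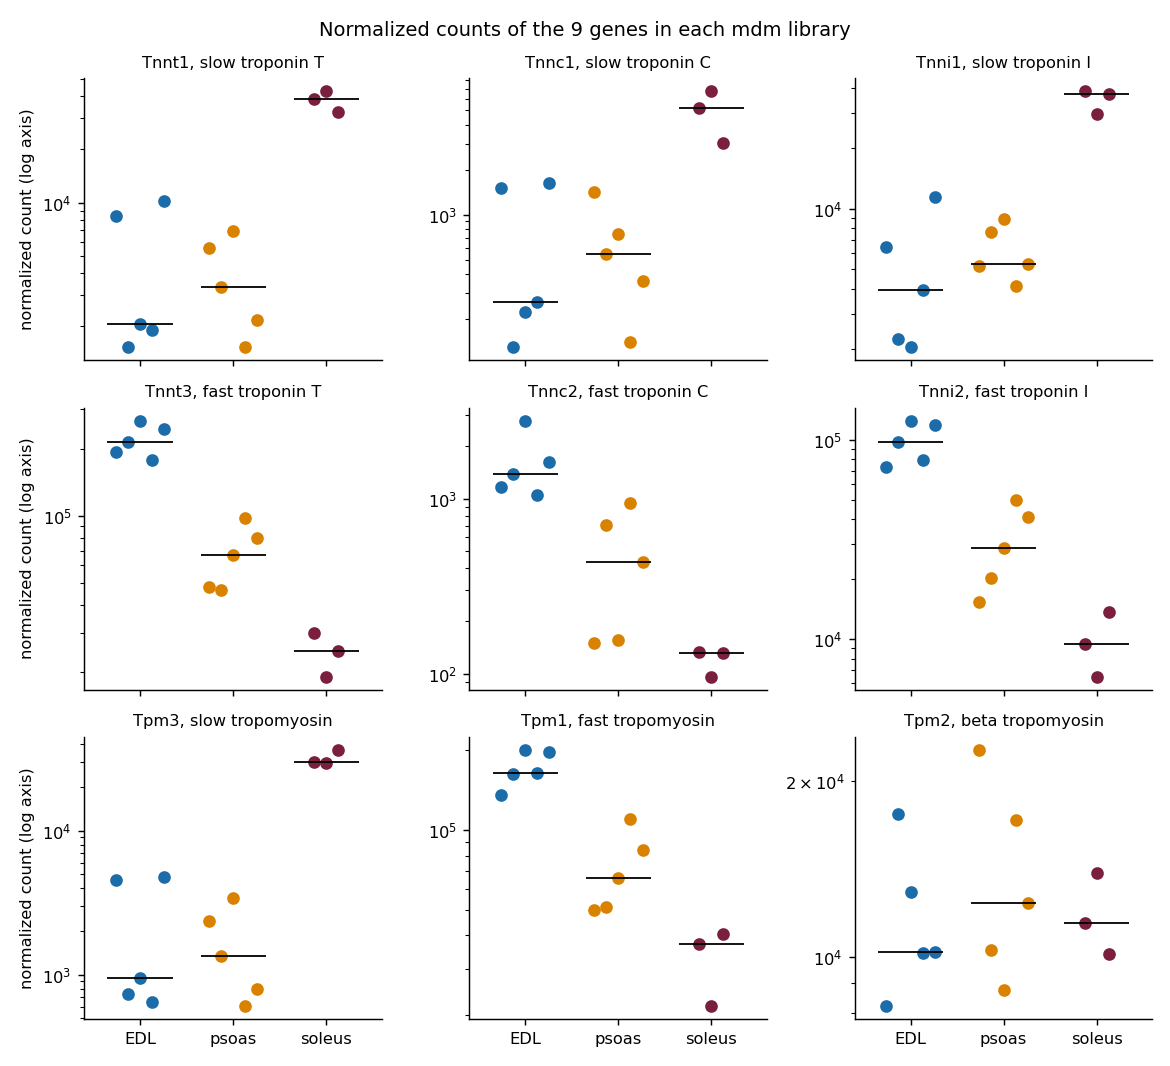
Normalized count (log axis) of each of the 9 genes in each library, 1 point a library in the order of the replicate numbers, grouped by muscle, with the median of the muscle as a line. The 3 soleus points lie above all others for Tnnt1, Tnnc1, Tnni1 and Tpm3 and below all others for Tnnt3, Tnnc2, Tnni2 and Tpm1, and the muscles overlap for Tpm2.

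Tnnt1, the troponin T of slow fibres, had normalized counts of 38746, 42706 and 32446 in soleus replicates 1 to 3, of 8423, 1522, 2053, 1911 and 10243 in EDL replicates 1 to 5 and of 5566, 3325, 6910, 1517 and 2172 in psoas. Every soleus library stood above every other library, while EDL and psoas overlapped. EDL was split, with replicates 1 and 5 several times above the other three.

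Tnni1, the slow inhibitory subunit, stood at 38408, 29641 and 37083 in soleus, at 6472, 2234, 2041, 3947 and 11440 in EDL and at 5165, 7655, 8911, 4113 and 5276 in psoas. Again soleus did not overlap with the other muscles, and EDL replicates 1 and 5 were the highest of EDL. Psoas was the most even of the fast muscles for Tnni1, its highest library being 2.17 times its lowest, against 5.61 times in EDL.

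Tpm3, the slow tropomyosin, had the widest range of the 9 genes, 59.7 times from the lowest to the highest library. It stood at 29722, 29585 and 36261 in soleus, at 4540, 735, 951.6, 645.8 and 4753 in EDL and at 2372, 1349, 3386, 607.1 and 799.1 in psoas. The 3 soleus libraries lay within 1.23 times of each other.

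Tnnc1, the troponin C of slow fibres (and of the heart), was the scarcest slow member on this scale, with 5166, 6724 and 3024 in soleus, 1517, 128.9, 221, 260.3 and 1639 in EDL and 1408, 545.8, 747.4, 140.7 and 360.6 in psoas. Soleus was again above every other library and soleus replicate 3 (3024) came closest to the others, of which EDL replicate 5 (1639) was the highest.

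Against EDL, 4 of 4 slow members were higher in every soleus library, which 5.33% of all genes tested were. In edgeR's quasi-likelihood fit, a gene was called where its p, adjusted over the 17069 genes by Benjamini-Hochberg, was under 0.01 and its level differed by more than 1 on the log2 scale. Of all genes, 0.533% were called upward and 0.978% in both directions. By this rule 2 of the 4 slow members were called, Tpm3 (13.8-fold, log2 fold change 3.79 ± 0.705 SE, adjusted p = 0.00943) and Tnni1 (6.75-fold, 2.76 ± 0.471, adjusted p = 0.00699). Tnnt1 (7.93-fold, log2 fold change 2.99 ± 0.627, adjusted p = 0.0178 by edgeR) and Tnnc1 (6.66-fold, 2.74 ± 0.786, adjusted p = 0.0741) missed the limit. The median log2 fold change of the 4 was 2.87, and that of all genes tested was -0.03. The 4 slow members are also on the list of genes that the study ranked as separating slow from fast muscle. The study's samples include these libraries, so the direction of the 4 in soleus is not independent evidence. By that list, Tnnt1, Tnnc1 and Tnni1 were higher in *mdm* than in wild-type EDL and psoas, and Tpm3 in psoas.

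The call of Tpm3 was lost without any 1 of 11 libraries (adjusted p up to 0.0356 by edgeR), namely each EDL and each soleus library and psoas replicates 1, 2 and 3, and that of Tnni1 without EDL replicates 1 to 4 or any soleus library (up to 0.0335). Without EDL replicate 1 the log2 fold changes of the slow members stayed positive, and over all fits without 1 library they ran from 2.76 to 3.46 for Tnnt1, 2.45 to 3.24 for Tnnc1, 2.55 to 3.27 for Tnni1 and 3.55 to 4.22 for Tpm3. Within code T4 (2 soleus libraries against 1 of EDL) the mean log2 differences were 4.72 for Tnnt1, 5.48 for Tnnc1, 3.90 for Tnni1 and 5.31 for Tpm3. Within T6 (1 against 2) they were 2.89, 2.22, 2.48 and 4.38 in the same order.

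Against psoas, 4 of 4 slow members were higher and 4 of 4 fast members lower in every soleus library, as were 4.97% and 5.19% of all genes. None of the 9 was called by edgeR, by which 0.0762% of genes were called in both directions, while 8 of the 9 had an unadjusted p under 0.05, as did 12.7% of all genes. DESeq2's Wald test called 5 of the 9 (1% of all genes), Tnnt1, Tnni1, Tpm3, Tnnt3 and Tnni2, and limma called 1, Tpm3. The largest difference was that of Tpm3, 18.8-fold (log2 fold change 4.23 ± 0.715, adjusted p = 0.017 by edgeR), followed by Tnnt1 at 9.78-fold (3.29 ± 0.632, adjusted p = 0.0318). Tnni1 stood 5.65 times as high in soleus as in psoas (log2 fold change 2.50 ± 0.469, adjusted p = 0.0275 by edgeR), and without EDL replicate 5, a library of neither muscle, it passed at 0.00928. Within codes T4 and T6 the log2 differences between soleus and psoas were 4.47 and 5.70 for Tpm3 and 2.15 and 3.0 for Tnni1.

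Set against the mean of EDL and psoas, soleus showed 3 of the 4 slow members called, Tpm3 (16.1-fold, adjusted p = 0.00299 by edgeR), Tnni1 (6.18-fold, adjusted p = 0.00401) and Tnnt1 (8.8-fold, adjusted p = 0.00733), where 0.293% of all genes were called upward and 0.34% in both directions. Of the 4 fast members 2 were called, Tnnt3 (4.95 times as high in the fast muscles, adjusted p = 0.00307 by edgeR) and Tnni2 (5.59 times, adjusted p = 0.00865), where 0.0469% of all genes were called downward. Soleus stood above both other muscles in every library for the 4 slow members and below them for the 4 fast ones, as for 1.17% and 0.545% of all genes. Tnnt1 kept its call in 4 and Tnni2 in 3 of the 13 fits without 1 library. Tnnc1 was 7.21 times as high (log2 fold change 2.85 ± 0.638, adjusted p = 0.0448). None of the 9 was called by edgeR once any 1 soleus library was left out, or with the condition code as a block.

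The fast members were lowest in soleus, and 2 of the 4, Tnnt3 and Tnni2, were also called between EDL and psoas. Tnnt3, the fast troponin T, had normalized counts of 193233, 214824, 267191, 178513 and 243934 in EDL, 48193, 46450, 66728, 98112 and 79246 in psoas and 29857, 19052 and 24848 in soleus. The 3 muscles did not overlap, and the order was EDL, psoas, soleus.

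Tnni2, the fast inhibitory subunit, was at 73127, 97448, 124798, 79669 and 118207 in EDL, at 15298, 20175, 28697, 50039 and 41188 in psoas and at 9454, 6489 and 13688 in soleus. The order of the muscles was that of Tnnt3, again without overlap, but psoas replicate 1 (15298) lay close to soleus replicate 3 (13688).

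Tpm1, which encodes the tropomyosin of fast fibres, stood at 135934, 162578, 200519, 163916 and 197179 in EDL, 50042, 51456, 65873, 110443 and 83765 in psoas and 37257, 21652 and 40635 in soleus. EDL was above psoas and psoas above soleus in every library. In psoas, replicates 4 and 5 were the highest for Tnnt3, Tnni2 and Tpm1 alike.

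Tnnc2, the fast troponin C, was counted far lower, with 1165, 1384, 2781, 1053 and 1608 in EDL, 150, 707, 155.7, 946.7 and 431.9 in psoas and 132.8, 96.41 and 132.4 in soleus. Its value is uncertain. The exons of Ube2c, a cell-division gene on the other strand, cover 592 of its 800 exon bases (74%), and 35% of the distinct stretches of 75 bases in its transcripts also occur, on one strand or the other, in those of Ube2c. The strand and overlap settings of the counting are not given in the sources used here. Ube2c had mean normalized counts of 1869 in EDL, 714.4 in psoas and 260.4 in soleus, the same order as Tnnc2, and the part of shared reads in the level of Tnnc2 was not tested.

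No soleus library reached the lowest EDL value of any of the 4 fast members, a separation downward that 5.72% of all genes showed, and all 4 were called (0.445% of genes were called downward). Tnnt3 was 8.91 times as high in EDL (log2 fold change -3.16 ± 0.359 SE, adjusted p = 0.000515 by edgeR) and ranked 11 by p among all genes tested. Tnni2 was 9.98 times as high in EDL (log2 fold change -3.32 ± 0.453, adjusted p = 0.00175), Tpm1 5.17 times (-2.37 ± 0.362, adjusted p = 0.00402) and Tnnc2, with the limit above, 13.2 times (-3.73 ± 0.629, adjusted p = 0.0066). Tnnt3 was called in every fit that left out 1 library (adjusted p up to 0.00695 by edgeR), while Tnni2 lost its call without soleus replicate 1 or 2, Tpm1 without any 1 soleus library and Tnnc2 without 6 libraries, EDL replicates 2, 3 and 5 and each of soleus. With the condition code as a block, Tnnt3, Tnni2 and Tpm1 remained called in soleus against EDL and Tpm3, Tnni1 and Tnnc2 did not. Within codes T4 and T6 the log2 differences were -3.19 and -3.06 for Tnnt3, -3.65 and -2.81 for Tnni2, and -2.54 and -2.13 for Tpm1.

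**Figure D2:**
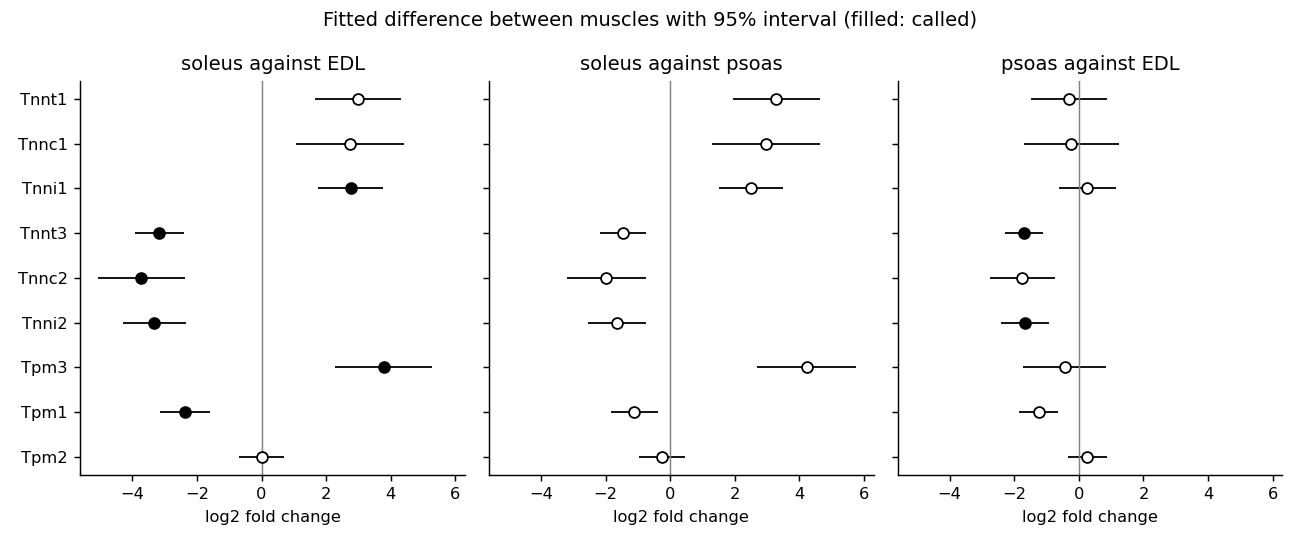
Log2 fold change of each gene (point) with its 95% interval (line) from edgeR in 3 comparisons, filled where the gene was called. The slow members lie right of 0 in both soleus comparisons and around 0 in psoas against EDL, and the fast members lie left of 0 in all 3.

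In psoas against EDL, the genes called were fast members. All 4 were lower in every psoas library than in every EDL library, as were 6.56% of all genes, and Tnnt3 (3.25 times as high in EDL, log2 fold change -1.70 ± 0.275, adjusted p = 0.00203 by edgeR) and Tnni2 (3.18 times, -1.67 ± 0.344, adjusted p = 0.00639) were called, 2 of the 9 members where 2.5% of genes were called downward and 4.93% in both directions. Tpm1 (2.38 times, log2 fold change -1.25 ± 0.286, adjusted p = 0.0101 by edgeR) and Tnnc2 (3.35 times, -1.75 ± 0.464, adjusted p = 0.0195) missed the limit, and DESeq2's Wald test called all 4 (9.29% of all genes). The call of Tnnt3 held in every fit without 1 library, and that of Tnni2 was lost in 7 of the 13, with adjusted p up to 0.0185. Tpm1 was called without psoas replicate 4 or soleus replicate 2, and also with RLE factors, the authors' size factors or a robust prior, while limma called Tnnc2.

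None of the slow members was called between the 2 fast muscles (unadjusted p of 0.472 or more by edgeR, and no call by DESeq2 or limma). Their log2 fold changes in psoas against EDL were -0.30 for Tnnt1 (95% interval -1.47 to 0.86), -0.23 for Tnnc1 (-1.70 to 1.24), 0.26 for Tnni1 (-0.62 to 1.14) and -0.44 for Tpm3 (-1.72 to 0.84), so each interval takes in a 2-fold difference in 1 direction or in both. The direction varied with the condition code. Within T4 and T5, with 1 library of each muscle, psoas stood above EDL in all 4 slow members (log2 differences of 1.09 and 1.74 for Tnnt1 and 0.84 and 1.82 for Tpm3), and within T6, with 2 of each, below it (-1.27 and -1.32). For the fast members all 3 codes gave psoas below EDL, by -2.24, -2.01 and -1.23 for Tnnt3 and -2.30, -2.13 and -1.09 for Tnni2.

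Of the marker lists of other cell types, only that of Schwann cells stood apart between psoas and EDL. The sums of satellite cell, smooth muscle, adipocyte, fibroblast, macrophage and endothelial markers overlapped. The 4 Schwann cell markers summed to 2173 to 18450 normalized counts in psoas and 452 to 1244 in EDL, and the 6 markers of satellite cells and regenerating fibres, which include the embryonic and neonatal myosins, to 64032 to 142123 in psoas and 34484 to 66286 in EDL. These myosins, Myh3 and Myh8, had means of 52303 and 41128 in psoas and 22515 and 24950 in EDL, so that sum is mostly of fibre genes. The 6 smooth muscle markers (smooth muscle cells also express Tpm1 and Tpm2) summed to 2576 to 10324 in psoas and 1384 to 3102 in EDL. In soleus the 5 adipocyte markers stood apart, at 34205 to 62529 against 3603 to 18984 in EDL and 10296 to 22977 in psoas. No marker of the lists named here was under 3 normalized counts in every library, and the part of these cell types in the levels of the 9 genes was not tested.

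Tpm2, the beta tropomyosin, did not differ detectably between the muscles. It had normalized counts of 8220, 17554, 12907, 10141 and 10199 in EDL, 22641, 10283, 8747, 17140 and 12385 in psoas and 11442, 13921 and 10098 in soleus. The muscles overlapped, and the intervals of the log2 fold change were -0.71 to 0.71 for soleus against EDL, -0.98 to 0.46 for soleus against psoas and -0.35 to 0.88 for psoas against EDL, so a difference of over 2-fold lies outside all 3.

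Per length, the mixture can be read within each library, where neither library size nor normalization enters. The slow share is the slow gene's reads per kilobase of exon over the sum of the slow and the fast gene's. For troponin T the share of Tnnt1 was 48.2%, 61.7% and 48.4% in soleus, 3.04%, 0.506%, 0.549%, 0.763% and 2.93% in EDL and 7.66%, 4.89%, 6.92%, 1.1% and 1.93% in psoas. Soleus libraries thus held about as much fast as slow troponin T RNA, and the fast muscles mostly fast.

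For troponin I the share of Tnni1 was 62.8%, 65.5% and 53% in soleus, 3.55%, 0.944%, 0.675%, 2.02% and 3.87% in EDL and 12.3%, 13.6%, 11.4%, 3.31% and 5.06% in psoas. For Tpm3 against Tpm1 it was 46%, 59.3% and 48.7% in soleus, from 0.418% to 3.44% in EDL and from 0.582% to 5.19% in psoas. The share of Tnnc1, which carries the limit on Tnnc2, was 96.8%, 98.2% and 94.6% in soleus and ranged from 5.75% to 50% in EDL and from 10.3% to 87.8% in psoas. The widest 95% interval of a share (Wilson, counting error only) was 1.28 percentage points for troponin T, I and tropomyosin and 6.05 for troponin C.

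**Figure D3:**
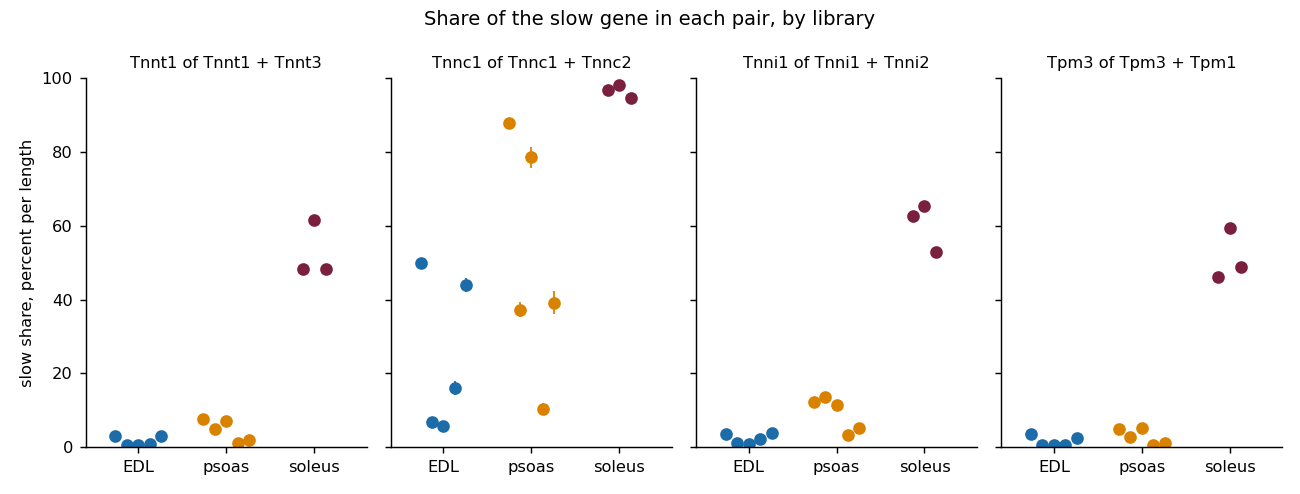
Share of the slow gene in each pair, in percent of reads per kilobase of exon, 1 point a library in the order of the replicate numbers, grouped by muscle, with 95% Wilson intervals that cover counting error only. In soleus the shares of Tnnt1, Tnni1 and Tpm3 lie between 46 and 65.5%, and in EDL and psoas at or below 13.6%, while that of Tnnc1 spreads from 5.75 to 98.2%.

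The slow share of troponin I was above that of troponin T in 13 of 13 libraries and above that of tropomyosin in 13 of 13, and the share of troponin T was above that of tropomyosin in 11 of 13, the exceptions being EDL replicate 1 and soleus replicate 3. These 3 shares do not involve Tnnc2. The shares depend on the exon lengths used (2204 bases for Tnnt1, 1583 for Tnnt3, 3600 for Tnni1, 1497 for Tnni2, 6085 for Tpm3 and 6485 for Tpm1, over all annotated transcripts), which are fixed across libraries, so their order between families is a description of these lengths as well as of the RNA. In plain reads, without lengths, the share of Tnni1 reached 73% to 82% in soleus and that of Tnnt1 56.5% to 69.2%.

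The log2 ratios of slow to fast reads were compared by exact permutation tests over libraries, two-sided, 8 tests with Benjamini-Hochberg adjustment over the 8. In soleus against EDL and psoas together, the ratio of Tnnt1 to Tnnt3 was 54.3 times as high (mean log2 ratio 0.64 ± 0.45 SD, n = 3, against -5.12 ± 1.5, n = 10; exact permutation p = 0.00699, adjusted p = 0.014), that of Tnni1 to Tnni2 38.4 times and that of Tpm3 to Tpm1 72.5 times, with the same exact p, the smallest that 3 libraries against 10 allow. The ratio of Tnnc1 to Tnnc2 was 62.4 times as high, with the same p. These p-values take the 10 fast libraries as independent of each other and of the 3 soleus libraries. With same-numbered EDL and psoas libraries averaged to 5 pairs, an alternative chosen after the data were seen, the exact permutation p was 0.0357 for each of the 4 ratios, the smallest that 3 against 5 allow, and adjusted 0.0571, above the limit. Replicates 1 of EDL and psoas differ in age (38 and 29 days), so their pair is not of 1 mouse. Within T4 and T6 the log2 differences were 6.24 and 5.97 for troponin T, 5.53 and 5.01 for troponin I and 6.58 and 6.73 for tropomyosin.

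In psoas against EDL the ratio of Tnni1 to Tnni2 was 4.83 times as high (mean log2 ratio -2.24 ± 0.98 SD against -4.52 ± 1.15, n = 5 each; exact permutation p = 0.0238, adjusted p = 0.0381), the 1 pair of the 4 that passed. This did not hold up within the codes alike, with log2 differences of 4.05 in T4 and 4.25 in T5, 1 library of each muscle, and 0.57 in T6, 2 of each. The adjusted p was above the limit of 0.05 in 9 of the 10 fits without 1 library (up to 0.0762, exact permutation test), the exception being the fit without psoas replicate 4. With the same-numbered libraries taken as 5 pairs, the replicate block gave an exact p of 0.0625, the smallest that 5 pairs allow. The pair of replicates 1 is of mice of different ages (38 and 29 days). The other 3 ratios differed by 3.21 times (Tnnt1 to Tnnt3, exact p = 0.0873), 4.47 times (Tnnc1 to Tnnc2, exact p = 0.159) and 2.18 times (Tpm3 to Tpm1, exact p = 0.238).

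The sum of slow and fast RNA was not the same in the 3 muscles. Per kilobase of exon, Tnnt1 and Tnnt3 together came to 140877 ± 23118 normalized counts in EDL (SD, n = 5), 44564 ± 13160 in psoas (n = 5) and 32757 ± 3229 in soleus (n = 3). Troponin I came to 67350 ± 15373, 22490 ± 9402 and 16332 ± 3484, and the 3 tropomyosins to 30966 ± 4484, 16326 ± 4309 and 14415 ± 1361, in the same order. EDL did not overlap with the other muscles in any of these sums, and psoas and soleus did in all 3.

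The ratio of the troponin T sum to the troponin I sum was 2.12 ± 0.213 in EDL, 2.09 ± 0.431 in psoas and 2.07 ± 0.472 in soleus (SD, n = 5, 5 and 3), with all 13 libraries between 1.56 and 2.83, while the sums themselves ran from 30418 to 169719 for troponin T and from 11654 to 83932 for troponin I. Like the shares, the sums and this ratio depend on the exon lengths used (3600 bases for Tnni1 and 1497 for Tnni2). The closeness of the ratio between muscles thus describes these lengths as well as the RNA. Over all 13 libraries, Tnnt3 over Tnni2 alone ran from 1.717 to 2.987, and Tnnt1 over Tnni1 from 0.6025 to 2.353. Without lengths, the means in soleus were 37966 for Tnnt1, 24586 for Tnnt3, 35044 for Tnni1 and 9877 for Tnni2. In EDL they were 4830, 219539, 5227 and 98650. The skeletal actin gene Acta1, which forms the filament they lie on, came to 381034 ± 108435 per kilobase in EDL, 192583 ± 62278 in psoas and 251748 ± 62429 in soleus, with overlap between the muscles. The 9 genes together took 2.08% to 3.09% of all counts in EDL, 1.08% to 1.997% in psoas and 1.07% to 1.27% in soleus.

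**Figure D4:**
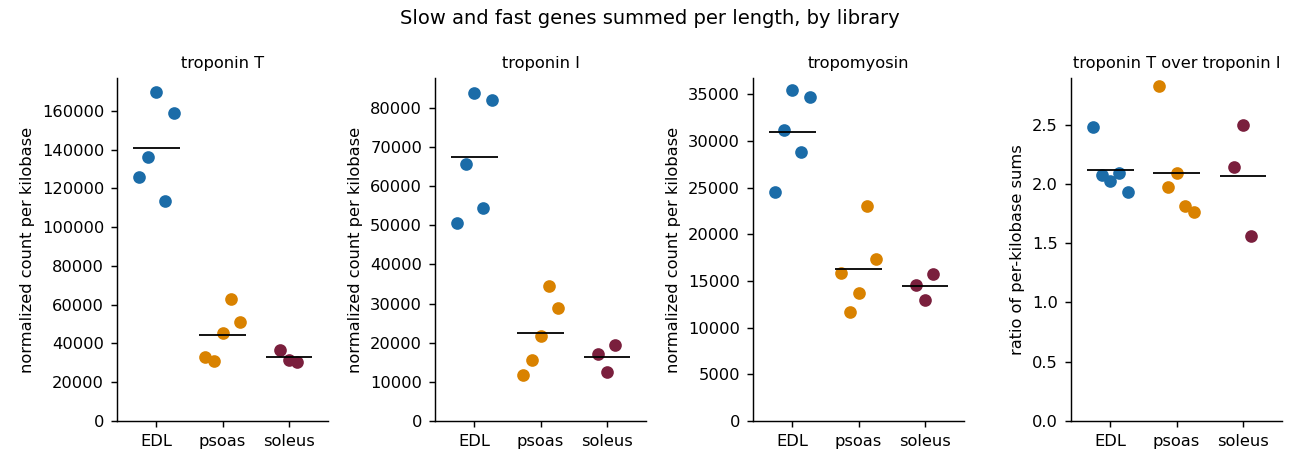
Normalized counts per kilobase of exon summed over Tnnt1 and Tnnt3, over Tnni1 and Tnni2 and over Tpm1, Tpm2 and Tpm3, and the ratio of the first sum to the second, 1 point a library, with the mean of the muscle as a line. The 5 EDL libraries lie above all others in the 3 sums, and the ratio stays between 1.56 and 2.83 in all 13. Sums and ratio depend on the exon lengths used.

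Within tropomyosin, EDL and psoas had the same order of means, Tpm1, Tpm2 and Tpm3, and soleus another. Per length, Tpm1 made up 85.6% ± 3.1 of the tropomyosin RNA in EDL (SD, n = 5), 67.8% ± 11.1 in psoas and 35% ± 8.07 in soleus, Tpm2 13.1% ± 3.59, 30.3% ± 10.9 and 28.7% ± 7.51, and Tpm3 1.30% ± 1.26, 1.92% ± 1.45 and 36.3% ± 2.42. The share of Tpm2 in psoas is that of a gene whose own level overlapped between muscles beside a lower Tpm1. In psoas replicate 1, Tpm2 (48.98%) and Tpm1 (48.56%) stood level.

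Levels of different genes, compared per kilobase, ran in the order Tnnt3 (138685 ± 22915), Tnni2 (65898 ± 15230), Tpm1 (26527 ± 4154) and Tpm2 (4058 ± 1245) in EDL, with the 4 slow members and Tnnc2 at means of 2192 or less. In soleus Tnnt1 (17226 ± 2348) and Tnnt3 (15531 ± 3416) did not differ beyond their spread, nor did Tpm3 (5235 ± 627) and Tpm1 (5117 ± 1562). Tnni1 (9734 ± 1313) and Tnni2 (6598 ± 2417) overlapped between libraries, though within each soleus library Tnni1 was the higher (shares of 62.8%, 65.5% and 53%). The sum of Tnnc1 and Tnnc2 was 2721 ± 975 in EDL, 1213 ± 297 in psoas and 4926 ± 1763 in soleus, and troponin T came to 55.9 times that sum in EDL and 7.26 times in soleus. Both values carry the limit on Tnnc2. Between the slow genes alone the ratio of Tnnt1 to Tnnc1 was 3.8 ± 1.2 in EDL, 3.41 ± 1.3 in psoas and 3.87 ± 1.07 in soleus, while that of Tnnt3 to Tnnc2 was 74.6 in EDL.

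EDL replicates 1 and 5 held the highest values of EDL for all 4 slow members, and also for Myh7, the myosin heavy chain of slow fibres (11097 and 9798, against 700.3 to 2172 in the other EDL libraries). Their fast members differed: replicate 1 held the lowest EDL value of Tnni2 (73127) and of Tpm1 (135934) and the second lowest of Tnnt3 (193233), whereas replicate 5 held the second highest of all 3 (118207, 197179 and 243934). In psoas, Myh7 and the slow members also varied widely, Myh7 from 271 in replicate 4 to 20950 in replicate 3, and replicate 4 had the lowest value of psoas for Tnnt1, Tnnc1, Tnni1 and Tpm3.

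Tpm3 has a close copy, Tpm3-rs7, and 19.1% of the distinct stretches of 75 bases in its transcripts also occur in other genes, 1220 of 6371 in Tpm3-rs7. Tpm3-rs7 had normalized counts of 1052, 971.2 and 1527 in soleus, 42.11 to 216.4 in EDL and 67.14 to 205.4 in psoas, and was called in soleus against EDL (log2 fold change 3.32 ± 0.497, adjusted p = 0.00357 by edgeR) and against psoas (3.34 ± 0.495, adjusted p = 0.0099). The second call was lost with RLE factors, the authors' size factors, a robust prior or the condition code as a block, and it held in 3 of the 13 fits without 1 library, those without EDL replicate 2, 4 or 5. The first was lost without any 1 soleus library. How reads were divided between the 2 genes is not given in the sources used here. With the reads of Tpm3-rs7 added to Tpm3, the log2 difference of the ratio to Tpm1 between soleus and the fast muscles was 6.13, against 6.18 without them. No other member shared a stretch of 75 bases with another of the 9.

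Of 28 other thin-filament genes (paralogues, actins, and genes of filament length, capping, turnover and assembly), 27 were tested. In soleus against EDL and against psoas 1 of 27 was called higher by edgeR, Tpm3-rs7, and 0 lower. Of all genes, 0.533% were called higher and 0.445% lower against EDL, and 0.0703% and 0.00586% against psoas. In psoas against EDL 0 of 27 were called higher, where 2.43% of all genes were, and 1 of 27 lower, where 2.5% were. The gene called lower was Tmod4, which caps the pointed end of the filament (1414 against 4840 mean normalized counts, log2 fold change -1.78 ± 0.285, adjusted p = 0.00199 by edgeR). The median log2 fold changes of the list were -0.17, 0.12 and -0.29 in these comparisons, against -0.03, -0.03 and 0.02 over all genes. At an unadjusted p under 0.05 there were 8, 5 and 11 of the 27 (15.1%, 12.7% and 33.3% of all genes), and DESeq2 called 2, 2 and 3 (3.71%, 1% and 9.29%), namely Tpm3-rs7 and Tmod4, Tpm3-rs7 and Actc1, and Tmod4, Acta1 and Cap2. Tnnt2, the troponin T of heart and of developing muscle, had mean normalized counts of 962.9 in EDL, 1970 in psoas and 1684 in soleus (psoas against EDL, log2 fold change 1.04 ± 0.367, adjusted p = 0.0641 by edgeR). Acta1 and the cardiac actin Actc1 were not called by edgeR in these comparisons, nor was Tpm4. DESeq2 called Acta1 in psoas against EDL (log2 fold change -1.01, adjusted p = 0.00365, against -0.99 and 0.0493 by edgeR) and Actc1 in soleus against psoas (-2.11, adjusted p = 0.000837, against -2.10 and 0.096 by edgeR).

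Over the 13 libraries, the genes most like a member were often other members. Tpm1 was the nearest gene to Tnni2 (Pearson r of log2 CPM 0.993) and to Tnnt3 (0.987), Tpm3 the nearest to Tnnt1 (0.993), and Tnnt1 the nearest to Tnnc1 (0.972). Ift81 came second for Tnnt1 (0.985), Tnnc1 (0.953) and Tpm3 (0.980), and Myl3, a slow myosin light chain, was also among the 3 nearest to Tpm3 (0.979). Mybpc2, the fast myosin-binding protein C, was among the 3 nearest to Tnni2 (0.982) and to Tpm1 (0.971). For Tnni1 the nearest were Ndrg4 (0.971), Pkp2 (0.966) and Atp2a2 (0.959), the calcium pump of slow fibres, and none was a member. The nearest to Tnnc2 were Shisa2 (0.935), Mustn1 (0.931) and Eno3 (0.927), the muscle enolase, and Tpm2 had no gene above Vgll2 (0.803), a cofactor of muscle gene transcription, with Vangl2 (0.795) and Ywhae (0.789) next. The 13 points share their muscles and, in part, their mice, so these values describe the libraries and carry no test.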

How the data were processed

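RNA of 13 whole *mdm* muscles was sequenced as stranded total RNA libraries. Per the study's methods and the submitters' processing notes, the authors trimmed libraries of low base quality with Trimmomatic 0.32, aligned reads to GRCm38 with TopHat 2.1.1 and counted them per gene with GenomicAlignments. The authors deposited whole-number read counts per gene and a normalized signal, the count divided by 1 DESeq2 size factor per library, 0.5023 to 2.417 (the quotient deviated from 1 factor by at most 5.2e-15). The strand and overlap settings of the counting are not given in the sources used here. The tables hold 17924 genes, 0 entries that name no gene and 0 columns of other samples, and GENCODE release 21 gave symbols for 17833.

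Genes that reached a normalized count of 10 in 3 or more libraries (17069) were fitted with edgeR 4.0.16 in R 4.3.3 (quasi-likelihood, TMM, all 13 libraries, muscle as the factor). A call required an adjusted p (Benjamini-Hochberg) under 0.01 and a change of more than 1 on the log2 scale in either direction. The sequencing runs that the study fitted are not in the labels. DESeq2's Wald test (1.42.0, with muscle as the factor and without the study's run term), limma 3.58.1 on log2(normalized count + 1), other scalings, no filter, the condition code or the replicate number as a block, fits of the compared muscles alone and fits without 1 library were alternatives. Log2 ratios of slow to fast counts were tested by exact permutation over libraries, two-sided, with a limit of 0.05 on the p adjusted over 8 tests. On simulated data of 17069 genes for soleus against the mean of EDL and psoas, with 200 genes changed by a log2 fold change of 3, edgeR, DESeq2 and limma recovered 100%, with 4, 7 and 5 false calls. The simulation gave every gene the same spread between libraries. Some members varied more, such as Tnnc1, which ran 12.7-fold between EDL libraries. The recovery therefore does not show the power of the fits for such members. Python 3.11.15, numpy 2.4.6, pandas 2.3.3, scipy 1.17.1 and matplotlib 3.10.9 were used for the rest.

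Total counts were 9114176 to 48835209, so a count of 77, the smallest of a member, is limited by counting as well as by the spread between libraries. Reads carry no molecular identifiers, so intervals cover counting error only. In 23 pairs of libraries of the same muscle, chi-square over its degrees of freedom was 56.5 or more, so none was taken as a duplicate. Same-numbered EDL and psoas libraries deviated together from the means of their muscles (r = 0.407, 0.370, 0.316, 0.289 and 0.371, all above 0.1). They were taken as pairs, with the numbers coming from the sample titles. The ages (38 and 29 days) and codes (T1 and T3) of replicates 1 differ, so that pair is not of 1 mouse. Some EDL and psoas libraries of different numbers also exceeded 0.1, up to r = 0.237 for EDL replicate 5 with psoas replicate 4. The limit of 0.1 alone thus does not mark a shared mouse. The soleus numbers did not pair throughout. Soleus replicate 3 had r = -0.162 and -0.302 with replicates 3 of EDL and psoas, while soleus replicate 2 reached 0.421 with EDL replicate 2. Soleus replicate 3 reached 0.442 with EDL replicate 4, of the same code. By the ages given, soleus replicates 1 and 2 (33 and 36 days) are not of the mice of any EDL or psoas library (29, 38 or 42 days). Whether soleus replicate 3 (38 days) shares a mouse with a fast library is not settled by these values. The text names all 9 members, the paralogues, actins and called genes of the thin-filament list, and the 3 genes most correlated with each member. Genes singled out otherwise (Myh3, Myh6, Myh7, Myh8, Ube2c, Cap2) were chosen after their values were seen. The members and lists were chosen with earlier results of these data known.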

Additional observations from a re-analysis of the deposited data

How the results depend on the processing

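In soleus against EDL, 6 members and 167 of all genes were called by edgeR, and DESeq2 called 633 of all genes and the condition code as a block left 3 members and 86 genes. In soleus against psoas, 0 members, 1 gene of the thin-filament list and 13 of all genes were called. DESeq2 called 5 members, 2 of the list and 171 genes, limma 1 member and 20 genes, the code as a block 0 of the list and 6 genes, the fit of the compared muscles alone 8 genes, and RLE factors, the authors' size factors and a robust prior 0 of the list. In psoas against EDL, 2 members, 1 of the list and 841 genes were called, against 4, 3 and 1586 by DESeq2. The code as a block gave 2 of the list there, and the fit of the compared muscles alone 557 genes. In soleus against the mean of the fast muscles, 5 members and 58 genes were called, against 256 genes by DESeq2 and 0 members and 22 genes with the code as a block. DESeq2 called 2 of the list in soleus against EDL, where edgeR called 1. The cause of these differences was not tested.

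With same-numbered EDL and psoas libraries as pairs, the replicate block called 1267 of all genes in place of 841 and the same 2 members, and the log2 difference of Tnni1 to Tnni2 was 2.27 over the pairs, positive in all 5, with the smallest exact p that 5 pairs allow, 0.0625, so this test could not pass. With the pairs averaged, added after the data were seen, the soleus log2 differences were the same (5.76 for troponin T, 5.96 for troponin C, 5.26 for troponin I and 6.18 for tropomyosin), and the exact p was 0.0357, the smallest that 3 against 5 allow (adjusted 0.0571). In these pairs, replicates 1 are of mice of different ages (38 and 29 days). No other call of a member changed with the block. It gave positive log2 fold changes in psoas against EDL for Tnnc1 (0.14, against -0.23) and Tpm3-rs7 (0.20, against -0.03).

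Without 1 library, the counts of all genes called ran from 19 to 182 (soleus against EDL), 3 to 21 (soleus against psoas), 317 to 802 (psoas against EDL) and 10 to 68 (soleus against the mean), those of members from 1 to 6, 0 to 1, 1 to 3 and 0 to 5, and those of the list from 0 to 1 in both soleus comparisons. The log2 difference of Tnni1 to Tnni2 in psoas against EDL ran from 1.92 to 2.61. Where soleus lost a library, 2 were left, and the spread was estimated over all muscles. The log2 fold changes that crossed 0 were not called: in psoas against EDL, Tnnt1 from -0.60 to 0.17, Tnnc1 from -0.74 to 0.27 and Tpm3-rs7 from -0.34 to 0.29, and in soleus against EDL, Tpm2 from -0.13 to 0.20.

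Among the other alternatives, the log2 fold change of Tnnc1 in psoas against EDL was 0.13 with limma. That of Tpm3-rs7 was 0.11 with the code as a block and 0.19 with limma. That of Tpm2 was -0.06 in psoas against EDL with the code as a block, and in soleus against EDL, where it was 0.00, it was -0.02 by DESeq2, -0.02 with RLE factors and -0.24 with the code as a block. Over the members, Tpm3-rs7 and Tmod4, 311 log2 fold changes under these alternatives kept their direction and their side of the limit, 17 newly passed it, 15 no longer did and 9 changed sign. The smallest counts of members were 77 (Tnnc2) and 111 (Tnnc1), where counting error adds to the spread between libraries.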
